A study of Mus musculus with 6 samples.

Results

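The proteasome subunit and assembly genes were examined in mouse epiblast stem cells (EpiSCs) that had lost Dicer. EpiSCs are primed pluripotent cells that correspond to the epiblast after implantation, and Dicer is the ribonuclease that trims microRNA precursors to mature microRNAs. Members were the genes whose array symbol is Pomp or begins with Psm followed by a letter from a to g and a digit. The symbols were taken from probe sets that name 1 gene, and the probe set with the highest mean level stood for its gene. The rule found 49 of the 20193 genes measured. Psmc3ip carries a matching symbol but encodes a recombination protein that binds an ATPase subunit, so it was kept apart and 48 proteasome genes remained. They comprised 18 genes of the core particle, 22 of its caps and regulators and 8 of its assembly.

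The Dicer-deleted cells (Dicer -/-) were EpiSCs with floxed Dicer alleles that had been exposed to 0.3 µM 4-OH-tamoxifen for 3 days and then grown for 2 days in its absence. Control cells (Dicer fx/fx) carried the same floxed alleles, were plated and split alongside, and never saw the drug, so that drug exposure and deletion cannot be told apart. The medium of both held bFGF at 12 ng/ml and Activin at 20 ng/ml, and RNA came from day 5. Experiments 18, 19 and 20 were independent deletions that each gave 1 deleted and 1 control sample, hence 6 arrays of the Affymetrix MoGene type. The recombinase and the number of cell lines are not given in the sources used here. In such bulk samples, fewer cells of a type and less RNA per cell cannot be told apart.

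The proteasome is the large protease that degrades proteins tagged with ubiquitin. Its barrel-shaped core particle is built of rings of alpha subunits, which gate the entry, around rings of beta subunits, some of which cut peptide bonds. A regulatory cap with a ring of ATPases (Psmc genes) and a set of non-ATPase subunits (Psmd genes) recognises, unfolds and feeds in the substrates. Assembly chaperones (Psmg genes and Pomp for the core, others for the base of the cap) put the particle together and are not part of it when finished. Interferon induces alternative catalytic subunits and an activator called PA28, which together shape the peptides shown on MHC class I molecules. Pluripotent stem cells are known for high proteasome activity.

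Array intensities here are linear values after robust multi-array averaging (RMA), and differences are log2 values of deleted minus control with the standard error (SE) of a limma fit over 20193 genes, 3 arrays per group, unless said otherwise. The median intensity of an array lay between 247.7 and 260.1. Dicer1 had intensities of 601.6, 553.1 and 645.4 in deleted cells of experiments 18, 19 and 20, against 1836, 2079 and 2098 in control cells, so each sample followed its label. It was the 1 gene of the whole array that passed in limma (-1.74 ± 0.09, Benjamini-Hochberg adjusted p = 0.045), and a fit with the experiment as a block gave it 0.067. It also lost its call without any 1 of the 6 arrays, with adjusted p from 0.226 to 0.729. Of the primed epiblast markers, 8 of 8 lay at or above the median level of all genes, among them Pou5f1, Sox2, Otx2 and Zic2. Of the naive markers 1 of 5 did (Klf4), and of the leukocyte markers 0 of 4. Of the listed fibroblast markers 3 of 6 did, and of the primitive streak and endoderm genes 6 of 6.

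Experiment 20 stood apart in both of its arrays. Genes of the primitive streak and endoderm, all 6 of those listed (T, Mixl1, Eomes, Gata6, Sox17 and Foxa2), were higher there than in either other experiment, in deleted and in control cells alike. Their summed intensity was 2628, 3799 and 20767 in deleted cells of experiments 18, 19 and 20, against 2031, 2491 and 21571 in control cells. T, which encodes the streak factor Brachyury, had intensities of 1012, 1200 and 11797 in deleted cells and 348, 271 and 7004 in control cells. Several mean differences are therefore also given without that experiment.

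The first question was whether any proteasome gene differed between deleted and control cells. None of the 48 passed at an adjusted p of 0.05: the lowest limma adjusted p was 0.824, and 0.150 with the experiment as a block. Over all genes, 0% rose and 0.00495% fell. At an unadjusted p of 0.05 in limma, 0 members were higher and 2 were lower (Psmg3 and Psmg4), beside 2.22% and 3.77% of all genes (3.86% and 2.87% of the brighter genes, those at or above the median level). With the block these were 4 higher (Psmb8, Psmb10, Psmd2 and Psmd5) and 3 lower (Psmg3, Psmg4 and Pomp), beside 8.04% higher and 9.05% lower over all genes (13.6% and 9.5% of the brighter genes). For Psmb5, as an example of the precision, the 95% interval of the difference ran from -0.40 to 0.34, or from -0.19 to 0.13 with the block, so a change of the size seen for Dicer1 lay outside it. This does not hold for every member. Without the block, the intervals of Psmb8 (-1.22 to 2.49) and Psmb10 (-1.26 to 2.46) included a rise of that size. With the block they ran from 0.04 to 1.23 and from 0.33 to 0.86.

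By sign, 7 of the 48 members were higher with deletion in all 3 experiments, 8 were lower in all 3 and 33 were mixed. Over all genes 15.2% were higher in all 3 and 28.3% lower. Since 45 of the 48 members were among the 10097 brighter genes, these are the closer background, and there 23.3% were higher in all 3 and 21.6% lower. The 7 higher were Psmb8, Psmb10, Psmb11, Psmd1, Psmd2, Psme4 and Psmd5. The 8 lower were Psma8, Psmc6, Psmd8, Psmg1, Psmg3, Psmg4, Pomp and Psmd9. Groups of arrays that did not overlap were found for 3 members, Psmg3, Psmg4 and Psmd9, each with all deleted arrays below all controls, against 9.93% of all genes and 5.09% of the brighter ones. No member had all deleted arrays above all controls, beside 3.26% of all genes and 5.04% of the brighter ones. For any 1 gene the exact two-sided permutation test of 3 arrays against 3 cannot give a p below 0.1, the value of these 3 members.

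**Figure D1:**
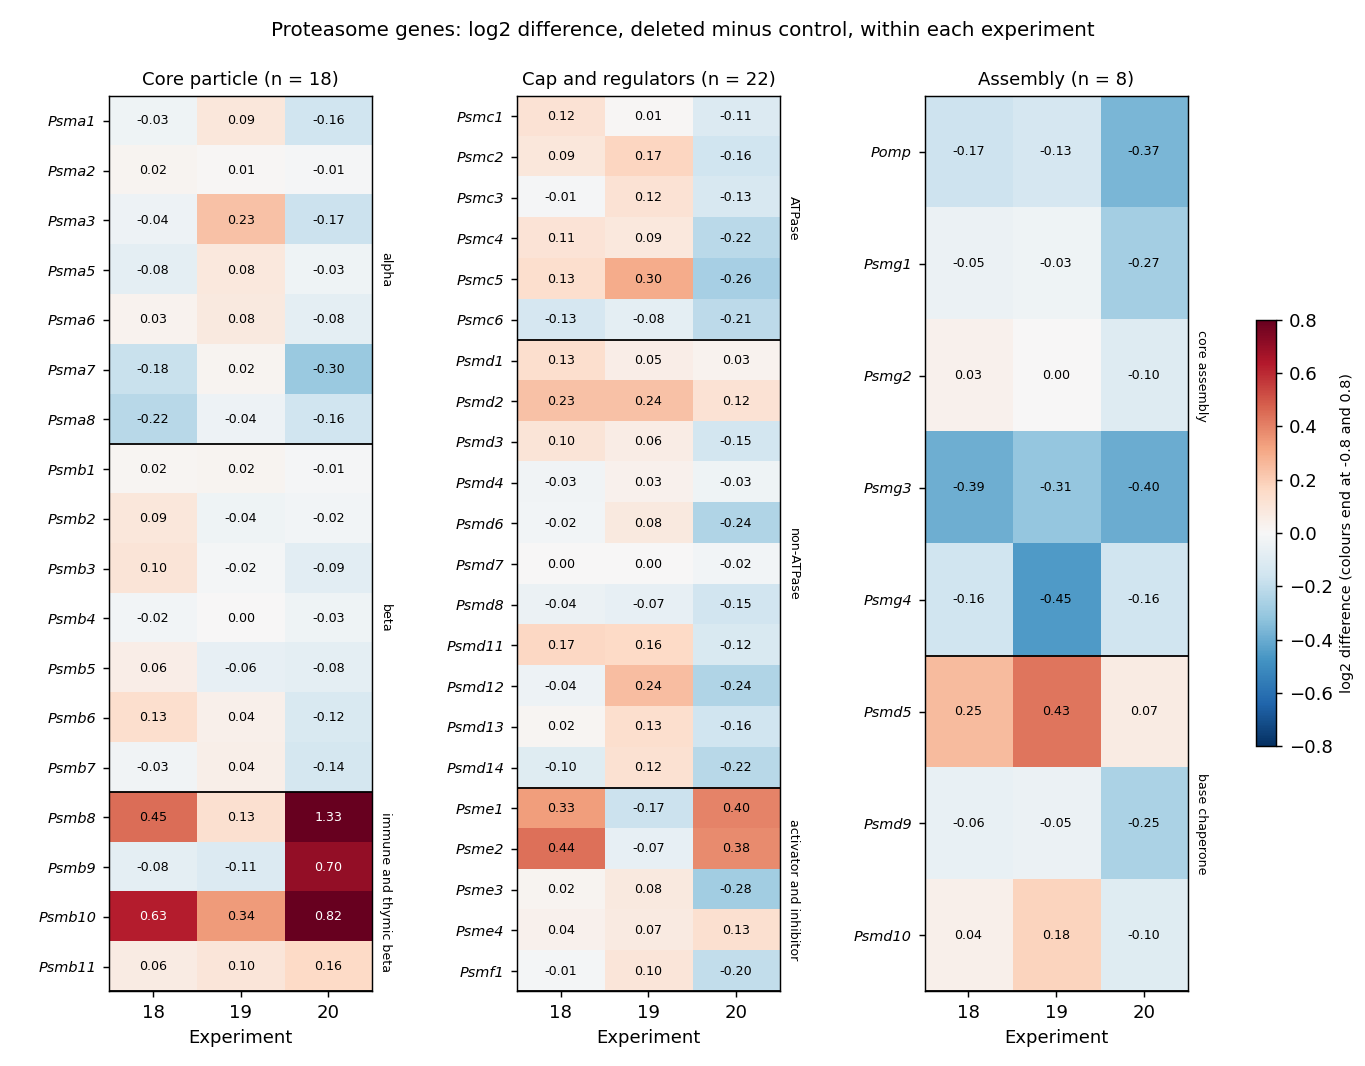
Log2 difference of deleted minus control within experiments 18, 19 and 20 (columns) for the 48 proteasome genes (rows), with core particle, cap and regulators, and assembly genes in separate panels; red is higher and blue lower in deleted cells, and colours end at -0.8 and 0.8. Blue fills most of the experiment 20 column of the core and cap panels, while Psmb8 (1.33), Psmb9 (0.70) and Psmb10 (0.82) stand out there in red, and Psmg3 and Psmg4 are blue in all 3 columns.

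Among the core subunits, the 13 constitutive genes had mean differences from -0.15 to 0.02, with signs that differed between experiments. In experiment 20, 13 of 13 were lower with deletion, beside 57.4% of all genes and 51.6% of the brighter ones. In experiment 19, 10 of 13 were higher, beside 38.5% and 48.5%. The alpha subunits form the gated outer rings. Psma4 was not a member, because its only probe set is shared with AY074887. The 7 alpha genes that were members had mean differences from -0.15 to 0.01. Psma7, chosen for mention after its values were seen because it was the lowest of them, had intensities of 1948, 2267 and 2013 in deleted cells and 2204, 2229 and 2476 in control cells, which overlap. Its mean difference of -0.15 was -0.08 without experiment 20. Psma8, a form of an alpha subunit known from the testis, was the 1 alpha gene with the same sign throughout (-0.14 ± 0.07, adjusted p = 0.837), but it was dim. Its intensities of 68.4, 74.2 and 66.4 in deleted cells and 79.7, 76.2 and 74.0 in control cells lay below the median of every array. Its lower sign in all 3 experiments was lost when the arrays were quantile normalized again or centred on their medians.

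The 7 constitutive beta genes had mean differences between -0.04 and 0.02, the narrowest range of the subunit groups. Some of these subunits carry the active sites, and their array values were as follows. Psmb5, the chymotrypsin-like subunit, had intensities of 8356, 9364 and 10529 in deleted cells and 8042, 9792 and 11100 in control cells (-0.03 ± 0.15). Psmb6, the caspase-like subunit, had 3911, 4422 and 5256 in deleted cells and 3569, 4305 and 5714 in control cells (0.02 ± 0.20). Psmb7, the trypsin-like subunit, had 3994, 4335 and 4062 in deleted cells and 4069, 4205 and 4472 in control cells (-0.04 ± 0.07). In each of them the groups overlapped, and the within-experiment differences stayed between -0.14 and 0.13. The signs of these small means turned under other settings: for Psmb5 with arrays centred (0.0018), and for Psmb7 with array weights (0.0055).

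The interferon-inducible catalytic subunits had mean differences of 0.17 to 0.64, higher than those of the constitutive subunits they replace, and none passed the test. Psmb8 takes the place of Psmb5, Psmb9 that of Psmb6 and Psmb10 that of Psmb7 when an immunoproteasome is assembled. Psmb8 had intensities of 215.7, 277.9 and 1184 in deleted cells of experiments 18, 19 and 20, against 158.2, 254.5 and 470.3 in control cells. Both arrays of experiment 18 lay below the median intensity of their array, so that its first fold rests on dim values. It was 1.36-fold, 1.09-fold and 2.52-fold as high in deleted cells, with both arrays of experiment 20 above all the others. The mean difference was 0.64 ± 0.75 (limma adjusted p = 0.951), and with the experiment as a block it was 0.64 ± 0.23 (adjusted p = 0.279).

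Psmb10 had intensities of 706.2, 1074 and 3318 in deleted cells and 456.5, 846.6 and 1881 in control cells. It was 1.55-fold, 1.27-fold and 1.76-fold as high in deleted cells, and the SD over the experiments, 1.15 in deleted and 1.02 in control cells on the log2 scale, exceeded the difference between groups. Its difference of 0.60 ± 0.75 in limma (adjusted p = 0.956) had an SE of 0.10 with the block (adjusted p = 0.150), with a 95% interval from 0.33 to 0.86 in that fit. Psmb9 had 462.3, 515.2 and 1005 in deleted cells and 488.3, 555.5 and 618.5 in control cells, so it was higher in experiment 20 alone (0.17 ± 0.31). Without experiment 20 its mean difference was -0.09, while that of Psmb8 was 0.29 and that of Psmb10 0.49. Leaving out only the deleted array of experiment 20 gave -0.12 for Psmb8, -0.18 for Psmb9 and -0.05 for Psmb10. That step breaks the pairing, because the control array of experiment 20, the highest control for each of these genes, stays in. The values therefore also hold the difference between experiments.

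Set against its constitutive counterpart on the same array, each immune subunit can be read without the general level of the array. The log2 ratio of Psmb8 to Psmb5 changed by 0.39, 0.19 and 1.41 in deleted relative to control cells of experiments 18, 19 and 20 (0.66 ± 0.65, SD, n = 3). That of Psmb10 to Psmb7 changed by 0.66, 0.30 and 0.96 (0.64 ± 0.33). That of Psmb9 to Psmb6 changed by -0.21, -0.15 and 0.82 (0.15 ± 0.58). The first pair of ratios moved the same way in all 3 experiments and the last did not. Psmb11, the beta subunit of thymic cortical epithelium, was dim, with 147.0, 141.4 and 137.9 in deleted cells against 140.6, 132.0 and 123.4 in control cells (0.11 ± 0.07).

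**Figure D2:**
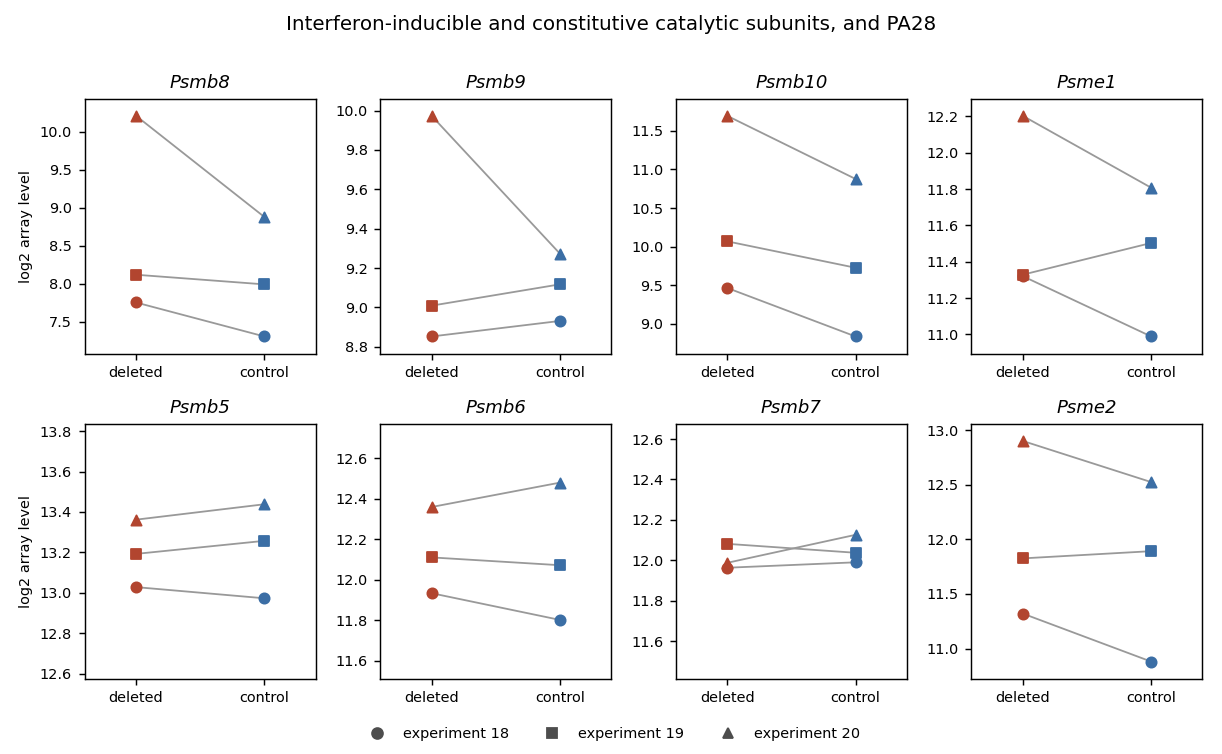
Log2 array level of the interferon-inducible subunits Psmb8, Psmb9 and Psmb10 (top), of the constitutive subunits Psmb5, Psmb6 and Psmb7 that they replace (below each), and of Psme1 and Psme2 (right), in deleted (red, left) and control (blue, right) cells; symbols mark the experiment, lines join its 2 arrays, and each panel has its own range. Psmb8 and Psmb10 lie higher in the deleted cells of all 3 experiments, with 0.13 and 0.34 in experiment 19 as their smallest differences, and experiment 20 (triangles) lies highest in both groups for every gene shown except Psmb7 in deleted cells.

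The start regions of these genes are shown for the 3 inducible catalytic subunits and for Psme1 as a PA28 gene, with that of Psmb5 beside them. The windows come from RefSeq (GRCm38.p6), run 5′ to 3′ in the direction of the gene, and hold 250 bases before and 50 bases after the start site. They lie at chr17:34197945-34198244, plus strand (Psmb8), chr17:34187281-34187580, minus strand (Psmb9), chr8:105938343-105938642, minus strand (Psmb10), chr14:55578244-55578543, plus strand (Psme1) and chr14:54617946-54618245, minus strand (Psmb5). Capitals mark a gamma-activated site core (TTCNNNGAA, bases -97 to -89) in Psmb8, a CCAAT box read on the opposite strand (bases -8 to -4) in Psmb9, an interferon-stimulated response core (GAAANNGAAA, on the opposite strand, bases 10 to 19) in Psme1, and an antioxidant response core (TGACNNNGC, bases -47 to -39) in Psmb5. The Psmb10 window held none of the motifs searched.
Psmb8: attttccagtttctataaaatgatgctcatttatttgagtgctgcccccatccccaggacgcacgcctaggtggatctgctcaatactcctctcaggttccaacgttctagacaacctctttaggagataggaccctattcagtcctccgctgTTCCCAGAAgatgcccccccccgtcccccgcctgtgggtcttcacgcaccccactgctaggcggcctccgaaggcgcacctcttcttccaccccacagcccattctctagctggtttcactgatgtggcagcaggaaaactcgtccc
Psmb9: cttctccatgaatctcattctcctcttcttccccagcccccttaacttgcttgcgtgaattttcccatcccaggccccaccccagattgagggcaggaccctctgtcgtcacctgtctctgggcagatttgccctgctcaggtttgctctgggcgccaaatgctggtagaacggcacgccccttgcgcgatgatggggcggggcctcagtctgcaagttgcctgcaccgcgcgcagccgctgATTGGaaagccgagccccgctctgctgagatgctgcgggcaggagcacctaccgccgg
Psmb10: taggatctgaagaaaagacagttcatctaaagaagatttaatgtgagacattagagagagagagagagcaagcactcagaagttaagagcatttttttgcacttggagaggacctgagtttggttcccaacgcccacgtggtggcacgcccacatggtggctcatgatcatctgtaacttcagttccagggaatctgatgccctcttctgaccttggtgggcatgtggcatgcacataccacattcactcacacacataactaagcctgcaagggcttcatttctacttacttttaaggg
Psme1: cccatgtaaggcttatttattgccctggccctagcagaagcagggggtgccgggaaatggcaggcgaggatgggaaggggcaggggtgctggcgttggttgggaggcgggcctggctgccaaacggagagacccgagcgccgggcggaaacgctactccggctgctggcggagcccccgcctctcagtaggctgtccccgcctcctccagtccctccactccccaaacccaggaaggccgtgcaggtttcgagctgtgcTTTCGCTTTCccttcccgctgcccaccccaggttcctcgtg
Psmb5: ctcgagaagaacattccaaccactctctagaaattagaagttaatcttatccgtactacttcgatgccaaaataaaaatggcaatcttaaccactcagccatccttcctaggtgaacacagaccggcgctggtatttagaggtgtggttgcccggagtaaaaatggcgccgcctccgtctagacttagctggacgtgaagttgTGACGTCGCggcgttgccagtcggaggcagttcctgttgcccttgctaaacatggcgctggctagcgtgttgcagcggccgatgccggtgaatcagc

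Of the 48 members, 40 had at least 1 window in this table, 43 windows in all, and motifs were searched on both strands. The antioxidant response core, the element read by the proteasome regulators NRF1 and NRF2, was in 6 of 43 member windows (14.0%, against 12.4% of 32851 windows of all genes), among them Psmb5, Psmb6 and Psmd12. The CCAAT box was in 14 (32.6%, against 37.4%). The interferon motifs were chosen after the values were seen: the interferon-stimulated response core was in 5 windows (11.6%, against 3.44%) and the gamma-activated site core in 3 (6.98%, against 8.30%). The 5 genes with the interferon-stimulated response core were Psmb3, Psmd4, Psmd9, Psme1 and Psmg4, and only Psme1 of these belongs to the interferon-inducible group. No motif overlapped another in the windows printed. The Psmb9 window and that of Tap1, the peptide transporter of antigen processing, share 275 bases on opposite strands. Tap1, named for that reason after its values were seen, had differences of -0.14, -0.51 and 1.02 in experiments 18, 19 and 20 (a mean of 0.12, and -0.33 without experiment 20), beside -0.08, -0.11 and 0.70 for Psmb9.

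The PA28 genes Psme1 and Psme2 encode a ring-shaped activator of the core that interferon also induces, and are described with the immune subunits by that role, a choice made after their values were seen. Psme1 had intensities of 2557, 2571 and 4715 in deleted cells and 2031, 2902 and 3584 in control cells (0.18 ± 0.32, SE 0.13 with the block, and 0.08 without experiment 20). Psme2 had 2557, 3629 and 7643 in deleted cells and 1885, 3799 and 5888 in control cells (0.25 ± 0.56, SE 0.11 with the block, and 0.19 without experiment 20). Without the deleted array of that experiment these means turned to -0.11 and -0.19, but its control array, the highest control for both genes, stayed in that comparison. Both were higher with deletion in experiments 18 and 20 and lower in experiment 19. Over the 5 interferon-inducible genes the median difference was 0.44, -0.07 and 0.70 in experiments 18, 19 and 20. The median of their mean differences was 0.25, and 0.19 without experiment 20. The other regulators are not known as interferon genes. Psme3, the nuclear PA28 gene, had a mean difference of -0.06 ± 0.25, Psme4, the activator PA200, one of 0.08 ± 0.14, and Psmf1, the inhibitor PI31, one of -0.04 ± 0.09. Without experiment 20 these were 0.05, 0.05 and 0.04. Psme4 was the 1 regulator that was higher in all 3 experiments, with intensities of 6574, 6258 and 5300 in deleted cells and 6415, 5953 and 4852 in control cells.

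The listed genes of interferon signalling and antigen processing were described beside these subunits. Of 15 measured genes of 16, 0 passed the test, 7 were higher with deletion in all 3 experiments and 0 were lower in all 3, beside the 15.2% and 28.3% over all genes and, since all 15 were brighter genes, the 23.3% and 21.6% over those. Without experiment 20 the median of their mean differences was 0.16, against 0.28 with it. Their median difference was 0.22, -0.09 and 0.70 in experiments 18, 19 and 20, with 15 of 15 higher in experiment 20 (42.5% of all genes and 48.4% of the brighter ones). The order of the experiments was that of the immune subunits, and a link between the listed genes and those subunits was not tested. The limma fit with the experiment as a block had 6 of the 15 genes higher and 0 lower at an unadjusted p of 0.05. The shares were 8.04% and 9.05% over all genes, and 13.6% and 9.5% over the brighter ones. The lowest adjusted p of the list in that fit was 0.150. In the fit without the block, Gbp2, an interferon-induced GTPase, had a mean difference of 1.06 ± 0.88 and Erap1, which trims peptides for MHC class I, one of 0.84 ± 0.71. Irf1, a factor that binds response elements of this kind, had one of 0.25 ± 0.17, and Nlrc5, the MHC class I transactivator, one of -0.08 ± 0.06. The markers of leukocytes, cells rich in immunoproteasome, were dim throughout, and 0 of 4 reached the median level. Their summed intensity was 439.8 to 492.3 in deleted and 447.6 to 485.8 in control cells. No detection calls were used, and whether such cells add to the values of the immune subunits was not tested.

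The cap subunits had small mean differences, but for 13 of 17 the sign differed between experiments. The 6 ATPases, which unfold the substrate, had mean differences from -0.14 to 0.06, and the 11 non-ATPase subunits from -0.09 to 0.20. Of the ATPases, 4 of 6 were higher with deletion in experiment 18, 5 of 6 in experiment 19 and 0 of 6 in experiment 20. Of the non-ATPase subunits, 6, 10 and 2 of 11 were. Without the block, the intervals of Psmd6 (-0.98 to 0.86) and Psmc4 (-0.82 to 0.80) also included larger changes. With the block they ran from -0.27 to 0.15 and from -0.23 to 0.21. Psmd2, a scaffold of the base that docks ubiquitin-like domains, had the highest mean difference of the cap subunits. Its intensities were 7506, 7281 and 7900 in deleted cells and 6384, 6178 and 7285 in control cells, with a difference of 0.20 ± 0.08 (limma adjusted p = 0.833, and 0.242 with the block). Deleted array 19 lay just below control array 20, so the groups overlapped. A second probe set for Psmd2 gave a mean difference of 0.16. Psmd1, the other scaffold of the base, had 5548, 6485 and 6531 in deleted cells and 5056, 6254 and 6397 in control cells (0.07 ± 0.12).

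Psmc6, an ATPase, was the lowest cap gene. It had intensities of 3659, 3579 and 3878 in deleted cells and 4012, 3774 and 4488 in control cells, with a difference of -0.14 ± 0.08 (adjusted p = 0.861). The groups overlapped, since deleted array 20 lay above control array 19. Psmd8, a subunit of the lid, had 3919, 3391 and 3719 in deleted cells and 4042, 3550 and 4133 in control cells (-0.09 ± 0.09, and -0.06 without experiment 20). Of all 22 cap and regulator genes, 3 were higher in all 3 experiments (Psmd1, Psmd2 and Psme4), 2 were lower (Psmc6 and Psmd8) and 17 were mixed.

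The assembly genes had the lowest median of the 3 classes in every experiment, and the difference between classes was not tested. The median difference of the 8 was -0.05, -0.04 and -0.21 in experiments 18, 19 and 20, and -0.12 in the mean, or -0.05 without experiment 20. The medians of the core were 0.02, 0.03 and -0.06 and those of the cap 0.03, 0.08 and -0.15, beside -0.02, -0.05 and -0.03 over all genes. Of the 8, 5 were lower in all 3 experiments, beside the 28.3% of all genes and 21.6% of the brighter ones, to which 7 of them belong, or 3 when arrays were centred on their medians. The 5 chaperones of the core carried this: their median was -0.16, -0.13 and -0.27, and Psmg1, Psmg3, Psmg4 and Pomp were lower in all 3.

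Psmg3, which pairs with Psmg4 to help build the alpha ring, had the lowest mean difference and the lowest unadjusted p of the members. Its intensities were 181.0, 185.4 and 177.1 in deleted cells and 237.0, 229.5 and 233.1 in control cells, and the groups did not overlap. The difference was -0.36 ± 0.05 with a 95% interval from -0.50 to -0.23, an unadjusted limma p of 6.94e-04 and an adjusted p of 0.824, or 0.150 with the block. It stayed between -0.39 and -0.35 when any array or experiment was left out. Psmg3 was also 1 of the 3 members below the median level, and genes below that level were lower with deletion as a whole, with a median difference of -0.05.

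Psmg4 had intensities of 861.1, 782.7 and 886.6 in deleted cells and 961.9, 1072 and 989.4 in control cells, again without overlap. Its difference was -0.26 ± 0.08 (95% interval from -0.45 to -0.06, limma adjusted p = 0.824, and 0.251 with the block). Experiment 19 showed the largest gap, -0.45. Pomp, the chaperone that brings beta subunits into the growing core, had 1596, 1615 and 1830 in deleted cells and 1792, 1769 and 2360 in control cells. It was lower within every experiment but the groups overlapped, because deleted array 20 lay above the controls of the other experiments (-0.22 ± 0.14, -0.15 without experiment 20, adjusted p = 0.863, and 0.253 with the block).

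Psmg1 and Psmg2 encode the other pair of alpha-ring chaperones. Psmg1 had intensities of 1753, 1932 and 2020 in deleted cells and 1812, 1975 and 2437 in control cells (-0.12 ± 0.13), and without experiment 20 the mean was -0.04. Psmg2 had 2326, 2311 and 2153 in deleted cells and 2272, 2310 and 2314 in control cells (-0.02 ± 0.06), a difference that turned to 0.007 with arrays centred. Among the chaperones of the base, Psmd5 lay higher with deletion, Psmd9 lower and Psmd10 mixed. Psmd5 had 1531, 1805 and 2267 in deleted cells and 1286, 1339 and 2166 in control cells (0.25 ± 0.25, SE 0.09 with the block, adjusted p = 0.268 in that fit). Psmd9 had 522.9, 538.2 and 503.2 in deleted cells and 543.7, 555.4 and 599.4 in control cells (-0.12 ± 0.07, and -0.05 without experiment 20), without overlap but with only a narrow gap in experiments 18 and 19.

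**Figure D3:**
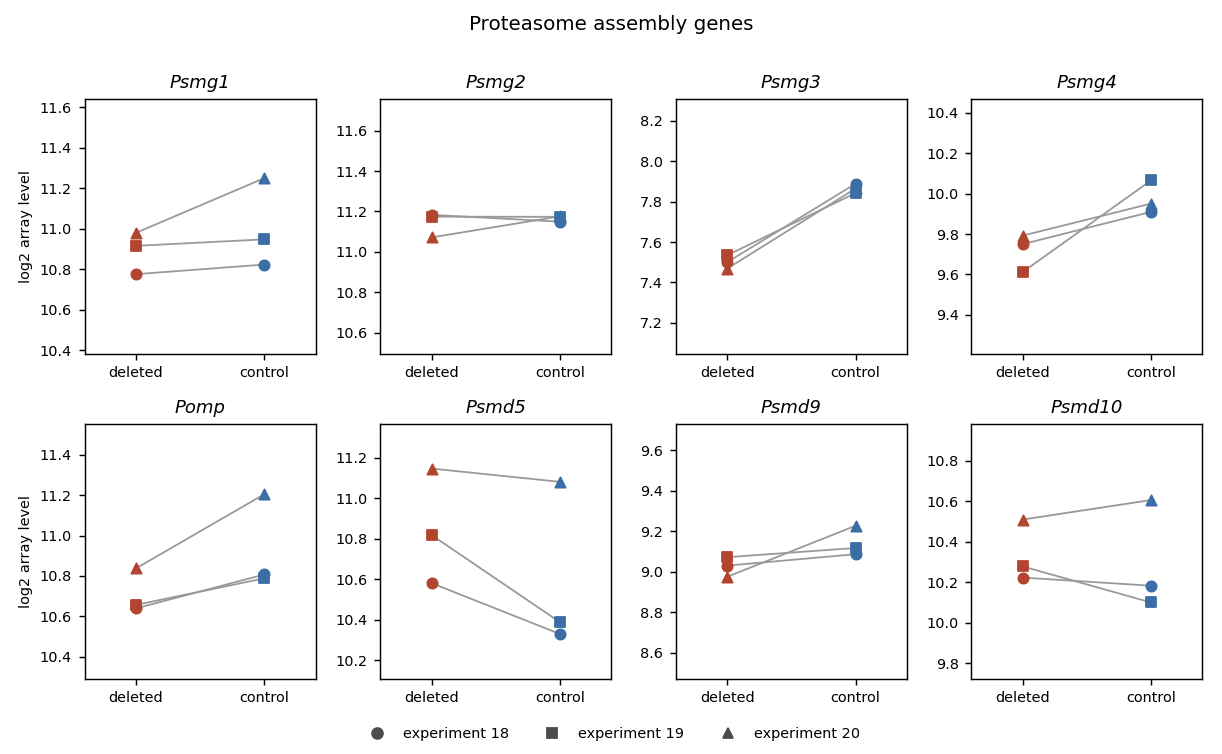
Log2 array level of the 8 assembly genes in deleted (red, left) and control (blue, right) cells; symbols mark the experiment, lines join its 2 arrays, and each panel has its own range. Psmg3 and Psmg4 lie lower in all 3 deleted arrays than in any control array, Pomp and Psmg1 are lower within each experiment, and Psmd5 is higher within each.

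The start region of Psmg3 is printed because this gene had the lowest mean difference of the members. It lies at chr5:139826845-139827144, minus strand (RefSeq, GRCm38.p6) and runs 5′ to 3′ in the direction of the gene. It has no capitals because none of the 4 motifs was found in this window.
Psmg3: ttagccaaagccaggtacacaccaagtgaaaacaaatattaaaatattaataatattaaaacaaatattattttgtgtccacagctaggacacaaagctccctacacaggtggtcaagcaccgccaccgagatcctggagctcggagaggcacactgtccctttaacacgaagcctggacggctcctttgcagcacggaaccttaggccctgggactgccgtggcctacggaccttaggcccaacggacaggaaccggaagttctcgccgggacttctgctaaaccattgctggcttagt

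The level of the constitutive subunits also differed between experiments. In deleted cells, 28 of the 30 constitutive genes of core and cap were higher in experiment 20 than in the mean of experiments 18 and 19, with a median excess of 0.25 on the log2 scale. In control cells, 30 of 30 were, with a median excess of 0.39 and a range from 0.08 to 0.98, and the control array of experiment 20 was above both other control arrays for each of them. Over the brighter genes the median excess was 0.001 in deleted and 0.02 in control cells. Of these 10097 genes, 5058 were higher in experiment 20 in deleted cells and 5220 in control cells. For 4342 of them the control array of experiment 20 was above both other control arrays. Psmd6, a lid subunit, and the ATPases Psmc5 and Psmc4 had the largest excesses in control cells, and were named after their values were seen. The streak and endoderm genes moved with this pattern, with a median excess of 2.59 in deleted and 2.86 in control cells over 6 of 6 genes, and their part in it was not tested.

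The excess was smaller in deleted than in control cells for 30 of 30 genes, beside 5305 of the 10097 brighter genes. For the 30 genes this restates that their differences were lower in experiment 20 than in the mean of the others. In experiment 20, 28 of 30 constitutive subunits were lower with deletion and 2 (Psmd1 and Psmd2) were higher, beside 57.4% lower over all genes and 51.6% over the brighter ones. In experiment 19, 25 of 30 were higher, beside 38.5% of all genes and 48.5% of the brighter ones. In experiment 18, 17 of 30 were higher, beside 44.7% and 55.2%. The medians of the 30 were 0.02, 0.05 and -0.13 in experiments 18, 19 and 20. Their mean differences ran from -0.15 to 0.20 with a median of -0.004, and without experiment 20 the median was 0.04. Each of these is 1 deleted against 1 control array, so the difference between experiments was not tested. Other markers also differed within experiment 20. Of the primed epiblast markers 7 of 8 were lower with deletion there (median -0.32), Nanog by the most with -1.24, and of the streak and endoderm genes 3 were higher and 3 lower, from -1.46 for Mixl1 to 0.75 for T. Their part in the proteasome values was not tested. Across the 48 members the differences of experiment 18 correlated with those of experiment 20 (Pearson r = 0.70) and of experiment 19 (r = 0.47), and those of 19 and 20 did so weakly (r = 0.14). Members share their arrays and are not independent, and over all genes these were 0.35, 0.50 and 0.26. Over the 30 constitutive subunits alone they were 0.43, 0.26 and -0.22.

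**Figure D4:**
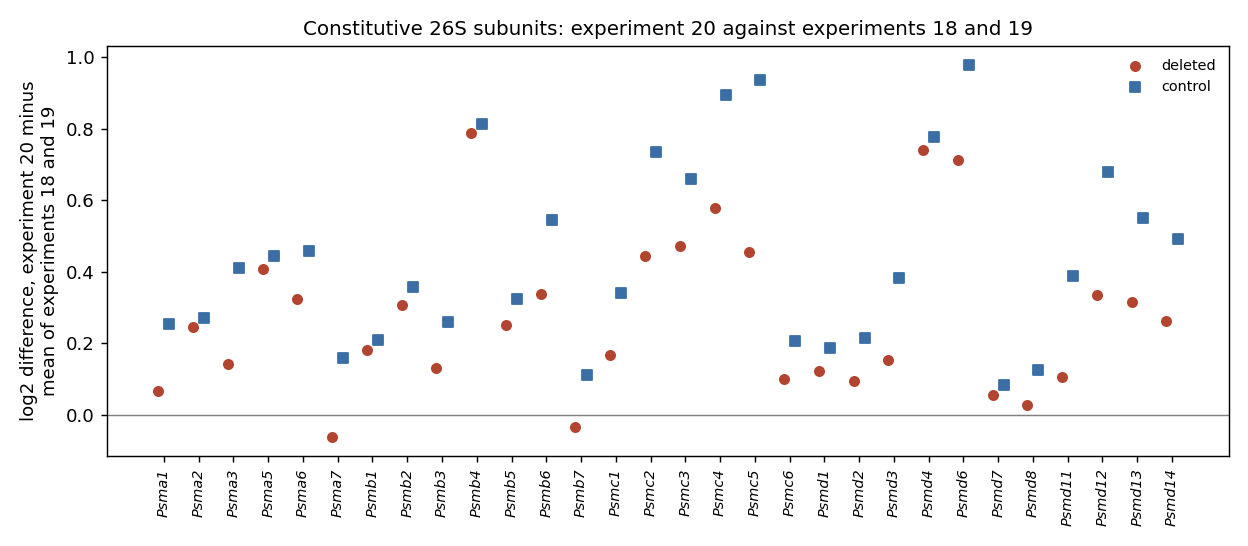
Log2 level of experiment 20 minus the mean of experiments 18 and 19 (vertical axis) for each of the 30 constitutive subunits (horizontal axis), in deleted (red circles) and control (blue squares) cells. The deleted points have a median of 0.25 and the control points one of 0.39, and the deleted point lies below the control point for all 30 genes.

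**Figure D5:**
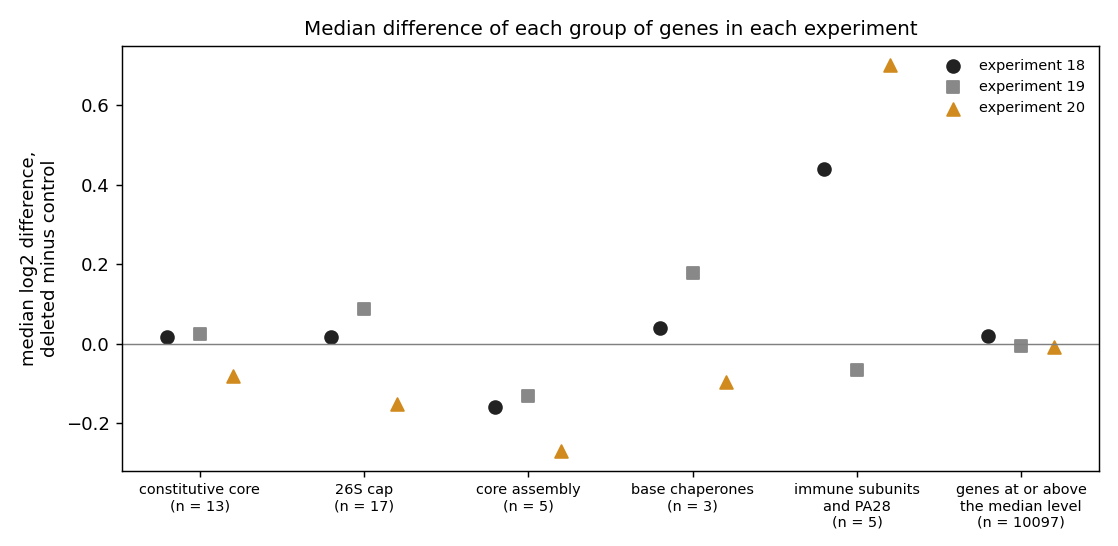
Median log2 difference of deleted minus control (vertical axis) in experiments 18, 19 and 20 (symbols) for groups of proteasome genes and for genes at or above the median level (horizontal axis). Constitutive core and cap genes change sign between experiments, core assembly genes lie at -0.16, -0.13 and -0.27, and immune subunits with PA28 at 0.44, -0.07 and 0.70.

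The partners of the proteasome were described from a list of regulators, shuttles and ubiquitin genes. Of the 30 listed, 24 were measured, 0 passed, 5 were higher in all 3 experiments and 4 were lower in all 3, beside 15.2% and 28.3% over all genes. All 24 were brighter genes, of which 23.3% and 21.6% were. Their median difference was 0.05. Nfe2l1 encodes NRF1, which drives proteasome genes when activity is short, and had intensities of 3569, 3225 and 3017 in deleted cells and 3546, 3723 and 3019 in control cells (-0.07 ± 0.11). Nfe2l2, which encodes NRF2, had 2857, 3306 and 3657 in deleted cells and 2720, 3529 and 3131 in control cells (0.07 ± 0.14, and -0.01 without experiment 20). Neither had the same sign in all 3 experiments. Ngly1, the glycanase that activates NRF1, had a mean difference of 0.20 ± 0.13.

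Subunits of the cap that do not carry a Psm symbol were among these partners. Adrm1, a ubiquitin receptor, had intensities of 1818, 2372 and 2463 in deleted cells and 1952, 2526 and 3163 in control cells (-0.18 ± 0.21, and -0.10 without experiment 20), and was lower in each experiment. Sem1 (Shfm1 on the array), the smallest subunit of the lid, had 1449, 1453 and 1420 in deleted cells and 1504, 1487 and 1474 in control cells (-0.05 ± 0.05), also lower in each. Ubqln2, a shuttle that carries ubiquitinated proteins to the proteasome, had 1958, 2374 and 2095 in deleted cells and 1583, 1718 and 1973 in control cells. Its difference of 0.29 ± 0.12 was the largest of the list and did not pass (limma adjusted p = 0.831), and deleted array 18 lay just below control array 20.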

How the data were processed

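RNA of 3 Dicer-deleted and 3 control EpiSC samples was measured on 1 Affymetrix MoGene 1.0 ST array each. The authors deposited a linear intensity per probe set, which the file header calls raw although array medians are nearly equal, and a log2 value that equals the log2 intensity minus the median of its probe set to within 2.31e-06. RMA and Affymetrix Expression Console 1.2 were used, per the submitters' processing notes, and probe sets carry an mm9 annotation, per the file headers. A general shift in RNA content cannot be seen after RMA, no detection calls were used, and the number of arrays limits the precision. Whether the samples of an experiment are separate cultures beyond the labels' word is not known, so p-values measure the spread between these samples.

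Of 28856 probe sets, 22439 name 1 symbol, and the probe set with the highest mean stood for each of 20193 genes, 55 probe sets for the 49 matching symbols. The fit used limma (version 3.58.1, R 4.3.3) on log2 intensity with lmFit and eBayes and the group as its only term; p-values were adjusted by Benjamini-Hochberg across the 20193 genes and called at 0.05. Samples are paired by experiment number: the labels place 1 deleted and 1 control sample in each, and across genes both arrays of an experiment deviated together from their group means (r = 0.83, 0.61 and 0.80 in experiments 18, 19 and 20). A second fit held the experiment as a block. Array values were given for the catalytic and immune beta subunits, Psmg1 to Psmg4, Pomp, and in every other subclass up to 3 members with the largest mean difference of 1 sign in all experiments; for the lists, regulators named by role and up to 3 members by the same rule. A gene that this rule names is not reported here. Members, lists, tests and rules were chosen with earlier results of these data known. Alternatives were the block, a filter on the median level, trend and robust settings, renormalization, centring, the mean of probe sets, array weights, another class boundary, a threshold of 0.1, and leaving out arrays and experiments. The fit was tested on simulated data. Plots were made in Python 3.11.15 (matplotlib 3.10.9).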

Additional observations from a re-analysis of the deposited data

How the results depend on the processing

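No proteasome gene passed under any of the alternatives, the replicate block and the leaving out of arrays or experiments included. Over all genes, 0 fell with the replicate block, with trend and robust settings, and without any 1 array or experiment, where Dicer1 lost its call. With experiment 20 left out and the replicate block in the fit, chosen after seeing the data, 314 genes rose and 74 fell, none of them a proteasome gene, and with experiment 18 or 19 left out in that fit 0 did. Centring arrays or quantile normalizing them again left 0 core genes lower in all experiments, against 1, and centring left 3 assembly genes, against 5. With Psmd5, Psmd9 and Psmd10 counted as cap, the assembly median was -0.22 and 0 assembly genes were higher in all experiments. Leaving out 1 array or experiment moved the median difference of the core between -0.094 and 0.11, of the cap between -0.12 and 0.19, of the assembly genes between -0.18 and -0.05, of the 30 constitutive subunits between -0.10 and 0.14, and of the interferon-inducible genes between -0.12 and 0.63. Where a single array was left out, its partner stayed in, so such values also hold differences between experiments. Leaving out an experiment gave 3 to 7 core genes higher and 2 to 7 lower in all that remained. It gave 3 to 12 and 2 to 8 cap genes, and 1 to 3 and 5 assembly genes. For constitutive subunits these were 2 to 14 and 2 to 13, and for interferon-inducible genes 2 to 4 and 0 to 1. The highest counts of higher core, cap, assembly and constitutive genes (7, 12, 3 and 14) came without experiment 20. The 7, 8 and 13 lower core, cap and constitutive genes came without experiment 19. A shared sign over 2 experiments comes more easily than over 3, so these counts cannot be set beside those over all 3. Shares over all genes for 2 experiments are not given here.

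Among the genes recomputed under every setting, the sign of the mean turned for Psmb5 (0.0018) and Psmg2 (0.0070) with arrays centred and for Psmb7 with array weights (0.0055). Leaving out an array or experiment gave ranges that cross 0 for genes that include Psmb5 (-0.15 to 0.079), Psmb6 (-0.14 to 0.20), Psmb7 (-0.083 to 0.0087), Psmb8 (-0.12 to 1.11), Psmb9 (-0.18 to 0.38), Psmb10 (-0.046 to 1.13), Psmd1 (-0.036 to 0.15), Psme1 (-0.11 to 0.37), Psme2 (-0.19 to 0.63), Psme3 (-0.26 to 0.15), Psme4 (-0.038 to 0.17), Psmf1 (-0.11 to 0.049), Nfe2l1 (-0.16 to 0.0042), Nfe2l2 (-0.030 to 0.16), Tap1 (-0.33 to 0.44), Psmg1 (-0.21 to 0.0050) and Psmg2 (-0.052 to 0.017). These ranges include steps that drop a single array and so break the pairing of its experiment, which adds the difference between experiments to the mean. In the fit with the replicate block, which changed no other call, the means are the same by construction. The series value table holds the values already used, so that alternative is void. No detection calls were used, so how far the dim genes Psma8, Psmb11 and Psmg3, and Psmb8 in experiment 18, lay above background is not known.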

Other observations

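Probe sets that name 2 genes were not members but bear on some of them. The shared probe set of Psma4 and AY074887, the only one that names this alpha subunit, had log2 differences of 0.10, 0.01 and -0.15 in experiments 18, 19 and 20. That of Psma5 and Gm8394 had a mean difference of -0.02. That of Psme2 and Psme2b-ps had 0.53, 0.23 and 0.14, higher in all 3 experiments, where the probe set of Psme2 alone had 0.44, -0.07 and 0.38. That of Sirt3 and Psmd13, a deacetylase and a lid subunit that share a probe set, had -0.27, -0.16 and -0.25, whereas Psmd13 alone had 0.02, 0.13 and -0.16.

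Among the 48 members, 5 had more than 1 probe set. The mean differences were -0.01, 0.01 and 0.01 for Psma3, 0.04 and 0.001 for Psmb3, 0.12 and 0.01 for Psmc1, 0.16 and 0.20 for Psmd2, and -0.01 and -0.004 for Psmd7. Psmc3ip, which has a matching symbol without being a proteasome gene, had intensities of 621.8, 669.6 and 570.0 in deleted cells and 647.7, 655.8 and 730.8 in control cells, a difference of -0.13 ± 0.09 in limma (adjusted p = 0.893).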
